A study of Mus musculus with 9 samples.

Results

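The genes described here are 37 mouse genes of glycolysis and of the transcriptional response to low oxygen. They were listed by symbol as known pathway members, and the list was chosen with earlier results of these data known. They stand among 52608 genes with at least 1 transcript in the deposited tables. By role they comprise 2 glucose transporters, 15 glycolytic enzymes, 2 enzymes that set the level of an activator of phosphofructokinase, 4 genes of lactate and pyruvate fate, 2 oxygen sensors, 2 carbonic anhydrases and 10 other hypoxia response genes. Reads were assigned to all 37, and all 37 passed the filter on low counts.

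The study measured RNA in mouse epiblast stem cell lines, which are pluripotent cells taken from the postimplantation epiblast, and asked how WNT signalling acts on them. The 9 libraries form 4 groups. Each group is called a line here, although the labels do not state that each is 1 separate line. A difference between groups and a difference between lines cannot be told apart. The medium of all lines contained FGF2 (10 ng/mL) together with activin A (20 ng/mL) and a serum replacement, over a layer of inactivated mouse embryonic fibroblasts as feeder cells. The control group (2 libraries) is an otherwise unmodified line without inhibitor. Dkk1_KO (3 libraries) is a line labelled as a knockout of Dkk1, which encodes a secreted WNT antagonist, also without inhibitor. In the IWP2 group (2 libraries) IWP2, a compound that blocks the secretion of WNT proteins, was added at 5 µM. IWP2_removed (2 libraries) had the inhibitor withdrawn once the line had been derived. The treatment text also lists SB431542, an inhibitor of activin receptors, which no group's labels assign to a sample. Each deposited table carries a letter in its name: in control, IWP2 and IWP2_removed 1 library has the letter B and 1 the letter C, and the Dkk1_KO libraries have A, B and C. The labels do not say what the letter stands for. Nor do they say that libraries of a group came from separate cultures, so p-values measure the spread between these libraries, which may be technical.

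Estimated totals ran from 10849490 to 17892751 reads per library. The 3 Dkk1_KO libraries differed from each other by a chi-square of 1.74 to 2.16 per degree of freedom over genes, against 29.3 to 83.1 between the libraries of each other group. Dkk1 itself stood at 0.70, 0.834 and 1.13 CPM (read counts brought to a common library total and scaled between libraries by TMM) in the Dkk1_KO libraries and at 6.76 and 8.94 CPM in control. It was also low in the libraries labelled IWP2, at 2.89 and 0.348 CPM, which overlap with Dkk1_KO (log2 fold change of Dkk1_KO over IWP2 -0.86, adjusted p = 0.344), and stood at 3.44 and 5.83 CPM in IWP2_removed. Against their label, the Dkk1_KO libraries were low in defining epiblast markers: Pou5f1 averaged 1.39 CPM there and 457 CPM in control, Nanog 1.99 and 169 CPM, and Tdgf1 0.338 and 266 CPM. The median log2 fold change of the 12 epiblast markers was -6.74. Their sum, between 824 and 868 CPM in Dkk1_KO and between 1907 and 2113 CPM in control, was carried in Dkk1_KO by Dnmt3b (459 CPM), Utf1 (164 CPM), Sox2 (97.8 CPM) and Pou3f1 (82.3 CPM). The trophoblast list summed to between 3533 and 3579 CPM in Dkk1_KO and to between 118 and 119 CPM in control. In bulk RNA, fewer cells of a type and less RNA per cell cannot be told apart.

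Glycolysis splits glucose into pyruvate in the cytosol, and lactate dehydrogenase then turns pyruvate into lactate while restoring the NAD that the pathway needs. When oxygen is low, the prolyl hydroxylases encoded by the Egln genes stop marking HIF-alpha proteins for destruction, and HIF dimers then bind DNA at short sites with an ACGTG or GCGTG core near their target genes. The targets include glucose transporters, most glycolytic enzymes, Pdk1, Bnip3, Vegfa and the Egln genes themselves. Epiblast stem cells are known for a more glycolytic metabolism than naive embryonic stem cells.

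Promoter windows of 300 bases, 250 before and 50 after the annotated gene start, were found for 35 of the 37 genes in the RefSeq table of build GRCm38.p6, in 51 windows. Slc2a3 and Ndrg1 had no entry. The letters ACGTG, searched on both strands, occurred in 52.94% of the 51 windows, in 19.62% of all 32851 windows and in 24.25% of the 15423 windows of genes tested for the letter difference described below. GCGTG occurred in 56.86% of the windows of the 37 genes, in 32.39% of all windows and in 47.76% of the windows of tested genes. CACGTG, which holds ACGTG on both strands, was in 4 of the 51 windows. The 5 windows printed here belong to the 2 genes with the largest letter difference (Bnip3 and Ankrd37), to 2 genes of the pathway that were also higher in letter C (Slc16a3 and Pgk1), and to Ldhb, which was not. Bnip3, Ankrd37 and Slc16a3 were taken by letter difference among genes whose only window held a core. Pgk1 and Ldhb were picked by name. The windows of Gpi1, Tpi1 and Eno2, also higher in letter C, held neither core. Capitals mark both cores and their reverse complements.
Bnip3 (chr7:138909457-138909756, minus strand): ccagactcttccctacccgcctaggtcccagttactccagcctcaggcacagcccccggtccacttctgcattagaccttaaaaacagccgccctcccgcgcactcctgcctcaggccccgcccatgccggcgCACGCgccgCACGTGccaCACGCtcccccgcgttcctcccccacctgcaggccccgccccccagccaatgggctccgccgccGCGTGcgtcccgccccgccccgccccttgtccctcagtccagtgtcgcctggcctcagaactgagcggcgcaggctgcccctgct
Ankrd37 (chr8:45999801-46000100, minus strand): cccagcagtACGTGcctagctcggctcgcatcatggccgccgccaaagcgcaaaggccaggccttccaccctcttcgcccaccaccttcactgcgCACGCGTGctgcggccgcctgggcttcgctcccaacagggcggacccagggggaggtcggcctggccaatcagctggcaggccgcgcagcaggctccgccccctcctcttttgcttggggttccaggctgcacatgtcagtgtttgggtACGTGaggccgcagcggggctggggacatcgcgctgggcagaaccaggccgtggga
Slc16a3 (chr11:120948817-120949116, plus strand): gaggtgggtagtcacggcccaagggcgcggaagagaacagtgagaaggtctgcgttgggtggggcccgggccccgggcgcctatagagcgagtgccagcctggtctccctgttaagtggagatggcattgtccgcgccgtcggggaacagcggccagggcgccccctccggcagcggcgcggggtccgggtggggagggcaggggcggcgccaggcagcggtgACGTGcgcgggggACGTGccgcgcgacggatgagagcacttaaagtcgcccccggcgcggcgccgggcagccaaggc
Pgk1 (chrX:106186850-106187149, plus strand): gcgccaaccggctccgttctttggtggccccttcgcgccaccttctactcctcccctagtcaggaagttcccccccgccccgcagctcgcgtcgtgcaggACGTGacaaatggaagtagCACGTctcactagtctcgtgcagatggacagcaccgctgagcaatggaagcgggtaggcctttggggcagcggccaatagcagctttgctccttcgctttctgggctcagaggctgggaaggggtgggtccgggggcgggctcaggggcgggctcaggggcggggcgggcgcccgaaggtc
Ldhb (chr6:142507908-142508207, minus strand): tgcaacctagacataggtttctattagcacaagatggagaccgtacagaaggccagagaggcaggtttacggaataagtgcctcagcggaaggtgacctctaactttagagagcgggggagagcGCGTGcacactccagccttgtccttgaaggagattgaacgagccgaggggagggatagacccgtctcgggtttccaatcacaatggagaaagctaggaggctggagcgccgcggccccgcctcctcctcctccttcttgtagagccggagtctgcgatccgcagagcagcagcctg
The Bnip3 window held 5 cores, 3 of them between positions -117 and -99 on the minus strand of the window. In Slc16a3 the 2 ACGTG cores started at -27 and -14 from the gene start, and in Pgk1 at -150 and -131. Ldhb held 1 GCGTG, at -126. A match is a stretch of letters and not a measured binding site. Of the 26 genes with a window that were higher in letter C, 19 held ACGTG in a window, and of the 9 that were not called, 5 did. For GCGTG the counts were 18 of 26 and 6 of 9, and for either core 23 of 26 and 8 of 9. Among all genes tested for the letter, 28.09% held ACGTG in any window, 53.6% GCGTG and 65.11% either core. No test was run on these counts.

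Levels between genes were compared as TPM, which corrects for transcript length. Gapdh, the glyceraldehyde phosphate dehydrogenase, had the highest level in every library, from 2486 to 4979 TPM. Pkm, the pyruvate kinase, ran from 676 to 1240 TPM and Eno1, the main enolase, from 443 to 959 TPM. In all, 12 genes averaged over 100 TPM: the transporters Slc2a1 and Slc2a3, the enzymes Gpi1, Aldoa, Tpi1, Gapdh, Pgk1, Pgam1, Eno1 and Pkm, and the lactate dehydrogenases Ldha and Ldhb. At the other end Pfkfb3, Pfkfb4, Egln3, Car9, Car12 and Ankrd37 averaged under 10 TPM. Car12, a membrane carbonic anhydrase, had the lowest level on average, from 1.01 to 4.06 TPM. The range between libraries was widest for Ndrg1 (17.4-fold), Ankrd37 (15.7-fold) and Bnip3 (14.3-fold), and narrowest for Pfkm (1.51-fold).

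**Figure D1:**
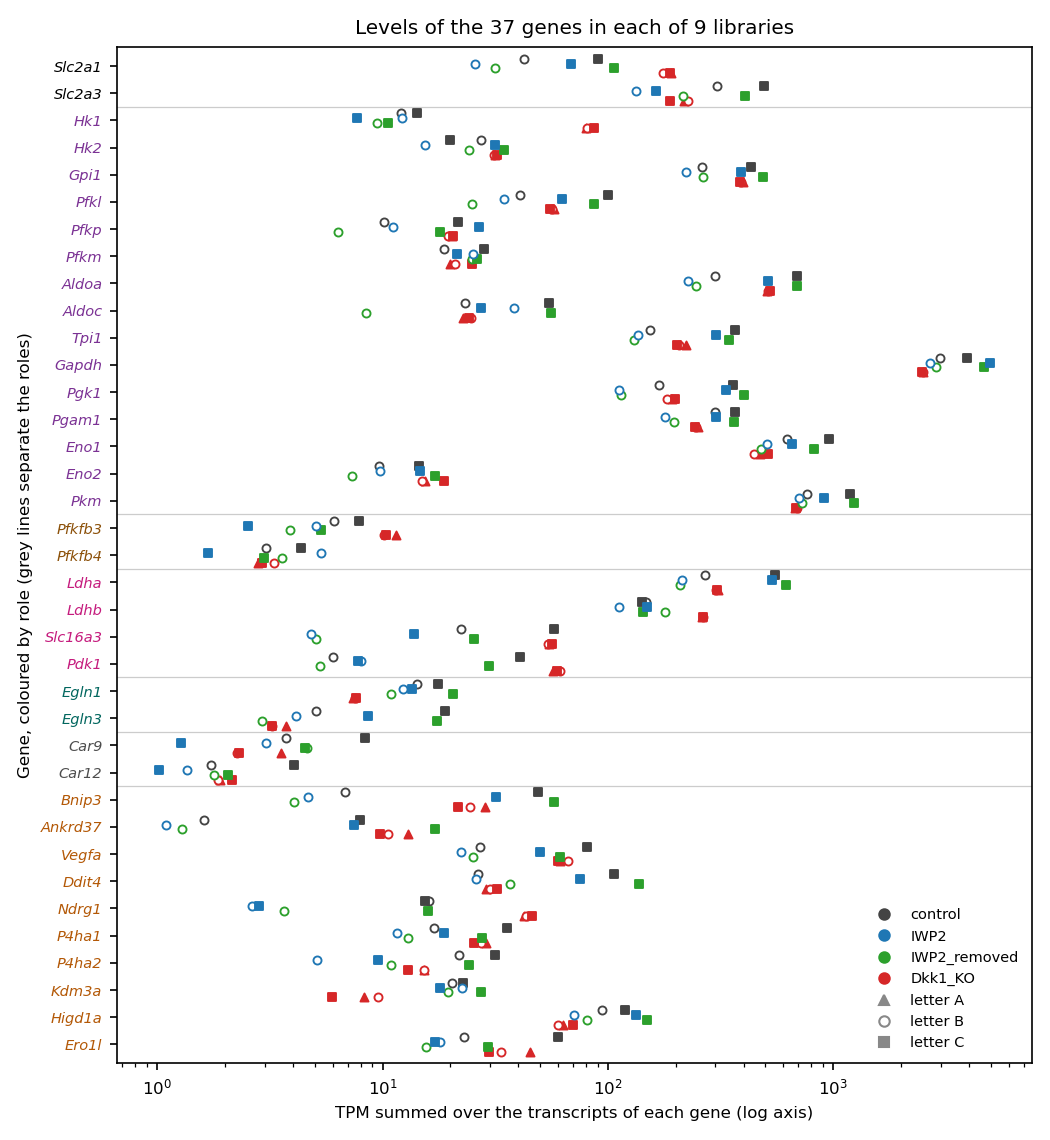
TPM of each gene (log axis) in the 9 libraries. Colours give the group, symbols the letter, and gene names are coloured by role. Open circles (letter B) lie left of squares (letter C) for most genes in control, IWP2 and IWP2_removed, as for Bnip3 at 6.82 and 48.8 TPM in control, while the 3 Dkk1_KO symbols lie close together.

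Some levels rest on transcripts that the annotation does not class as coding. For Gapdh, coding transcripts received only 0.205% to 1.78% of the gene's reads, and the rest went to shorter transcripts of the same gene. The TPM of Gapdh, and with it the rank above Pkm, rests on those shorter transcripts. In CPM, which carries no correction for length, Pkm was above Gapdh in every library. Pkm ran from 1432 to 3180 CPM and Gapdh from 1085 to 2548 CPM. The share of reads on coding transcripts was 22.7% to 59.5% for Pdk1, 33.7% to 51.4% for Slc2a1 and 0% to 43.1% for Ankrd37. Reads of Eno1 are shared with its near-identical copy Eno1b, which received 112% of the reads assigned to Eno1, so the level of Eno1 is uncertain. Pgam1 copies received 7.64% of the reads assigned to Pgam1.

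The most regular pattern in these genes ran between the libraries of letter B and letter C, in all 3 lines that have 1 library of each. Together the 37 genes took 0.751%, 0.663% and 0.739% of the reads in the letter B libraries of control, IWP2 and IWP2_removed. In the letter C libraries of the same lines they took 1.49%, 1.42% and 1.59%. The 2 sets of libraries did not overlap. The 3 Dkk1_KO libraries lay between them, at 1.03%, 1.03% and 1.04% for letters A, B and C.

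**Figure D2:**
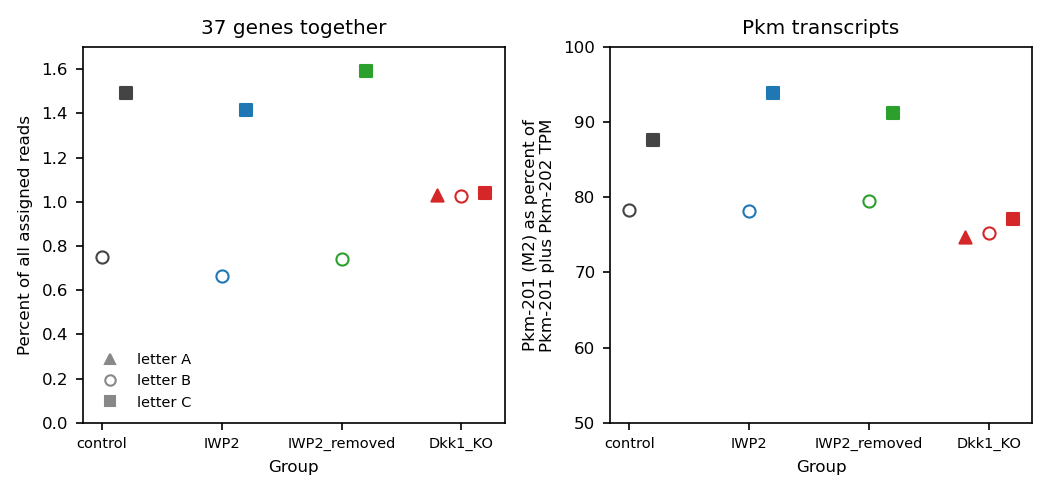
Left, share of all assigned reads that fell on the 37 genes, in percent, by group; right, Pkm-201 as a percent of Pkm-201 plus Pkm-202 TPM, on an axis that starts at 50. Each symbol is 1 library. The letter C squares stand at 1.42% to 1.59% on the left, above the letter B circles of the same lines, while the Dkk1_KO symbols stand at 1.03% to 1.04%.

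Fitted over these 6 libraries with a term for the line, 27 of the 37 genes were higher in letter C and 0 lower, at a Benjamini-Hochberg adjusted p under 0.05 in edgeR's quasi-likelihood test. Of all 17213 genes tested, 7.66% were called, 3.1% as higher and 4.56% as lower. The median log2 difference, C minus B, was 1.11 over the 37 genes and -0.001 over all genes tested. In CPM, 32 of the 37 were higher in letter C in 3 of 3 lines, a count given without the share of all genes. In single lines 36, 34 and 36 of the 37 were higher in control, IWP2 and IWP2_removed. The shares of all genes tested were 50.4%, 49.0% and 51.6%. For 29 genes, every letter C library exceeded every letter B library, which held for 14.8% of all genes tested. By role, the calls covered 2 of 2 glucose transporters, 12 of 15 glycolytic enzymes, 0 of 2 PFKFB genes, 3 of 4 genes of lactate and pyruvate fate, 2 of 2 oxygen sensors, 0 of 2 carbonic anhydrases and 8 of 10 other hypoxia response genes. The question of a letter difference was taken up with earlier results of these data known.

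Among the glucose transporters, Slc2a1 (GLUT1, chr4:119108711-119137983) stood at 107 and 258 CPM in the letter B and C libraries of control, at 69.1 and 264 CPM in those of IWP2 and at 97.6 and 349 CPM in those of IWP2_removed. Every letter C library was above every letter B library, by a log2 difference of 1.68 ± 0.16 (SE, adjusted p = 0.00463). Slc2a3 (GLUT3) was also called, with a smaller difference of 1.08 ± 0.14 on the log2 scale.

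Among the glycolytic enzymes all 3 phosphofructokinases, which catalyse the committed step, were called. Pfkl, the liver type, stood at 117 and 377 CPM in letters B and C of control, 108 and 354 CPM in IWP2 and 96.3 and 388 CPM in IWP2_removed. The 3 pairs were alike, with a log2 difference of 1.80 ± 0.14 (adjusted p = 0.0025). Pfkp, the platelet type, had 26.5 and 93.7 CPM in control, 40.4 and 87.7 CPM in IWP2 and 24.4 and 77.3 CPM in IWP2_removed. Its difference was smallest in IWP2 and came to 1.53 ± 0.17 over the 3 lines (adjusted p = 0.0064). Pfkm, the muscle type, differed by only 0.55 ± 0.12 on the log2 scale and was called (adjusted p = 0.034).

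Further down the pathway, Aldoa, which cleaves fructose bisphosphate, had 394 and 1119 CPM in letters B and C of control, 322 and 1028 CPM in IWP2 and 387 and 1199 CPM in IWP2_removed. Every letter C library was far above the letter B libraries, and the log2 difference was 1.60 ± 0.14 (adjusted p = 0.00362). Tpi1, the triose phosphate isomerase, had 247 and 661 CPM in control, 223 and 640 CPM in IWP2 and 227 and 651 CPM in IWP2_removed. The pairs of this gene were the most alike of these 3 enzymes, at 1.42, 1.52 and 1.52 on the log2 scale. Pgk1, the phosphoglycerate kinase that makes the first ATP of the pathway, had 350 and 881 CPM in control, 247 and 908 CPM in IWP2 and 266 and 1003 CPM in IWP2_removed. Its difference over the lines was 1.71 ± 0.17 (adjusted p = 0.00471).

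The remaining called enzymes were Gpi1, Gapdh, Pgam1, Eno1, Eno2 and Pkm, with log2 differences between 0.84 (Pgam1) and 1.37 (Eno2). Gapdh, often used as a reference gene, was higher in letter C by 0.90 ± 0.17 on the log2 scale (adjusted p = 0.0259), at 1132 and 1769 CPM in control, 1085 and 2548 CPM in IWP2 and 1214 and 2146 CPM in IWP2_removed. The enzymes not called were the hexokinases Hk1 (0.16 ± 0.17) and Hk2 (0.24 ± 0.14), which add the first phosphate to glucose, and Aldoc (1.38 ± 0.45). For Aldoc the pairs were far apart, from 0.11 in IWP2 to 2.84 in IWP2_removed. Pfkfb3 and Pfkfb4, whose products make the phosphofructokinase activator fructose 2,6-bisphosphate, differed by 0.24 ± 0.25 and -0.04 ± 0.25 and were not called.

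Pkm makes 2 forms of pyruvate kinase from a pair of mutually exclusive exons of 167 bases. The M1 exon (chr9:59675029-59675195) is in transcript Pkm-202 and the M2 exon (chr9:59675568-59675734), which embryonic and dividing cells use, is in Pkm-201. Of the TPM of both transcripts, Pkm-201 took 78.4%, 78.1% and 79.6% in the letter B libraries of control, IWP2 and IWP2_removed. In the letter C libraries the share was 87.6%, 93.9% and 91.3%, and in Dkk1_KO it was 74.7%, 75.3% and 77.1%. The shares of letter B and letter C did not overlap. These are Salmon's estimates without an error, the 2 transcripts held 60.8% to 85.8% of the gene's TPM, and no test was run.

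At the end of the pathway, Ldha, the lactate dehydrogenase subunit that favours lactate, had 464 and 1102 CPM in letters B and C of control, 396 and 1226 CPM in IWP2 and 398 and 1307 CPM in IWP2_removed. Its log2 difference was 1.53 ± 0.16 (adjusted p = 0.00544). Ldhb, the subunit of the other form, had 120 and 129 CPM in control, 106 and 137 CPM in IWP2 and 157 and 137 CPM in IWP2_removed. The libraries of Ldhb overlapped, and its difference was 0.09 ± 0.14 (adjusted p = 0.712).

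Slc16a3, the lactate exporter MCT4, rose from 43.3 to 140 CPM in control, from 9.33 to 47 CPM in IWP2 and from 11.8 to 75.3 CPM in IWP2_removed. This gene differed between the lines as well: the letter C library of IWP2 was near the letter B library of control. The log2 difference of the letters was 2.21 ± 0.20 (adjusted p = 0.00398). Pdk1, the kinase that switches off pyruvate dehydrogenase, had 16.1 and 62.9 CPM in control, 11.4 and 36.1 CPM in IWP2 and 11.2 and 61.3 CPM in IWP2_removed, a difference of 2.02 ± 0.18 (adjusted p = 0.00386). In TPM the pair of IWP2 did not differ in this direction, at 8.04 TPM in letter B and 7.80 TPM in letter C.

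The oxygen sensors Egln3 and Egln1, which are themselves HIF targets, differed by 2.05 ± 0.24 and 0.66 ± 0.15 on the log2 scale and were both called. Car9 and Car12, which handle acid outside the cell, were not called, at 0.86 ± 0.39 and 0.68 ± 0.25. Their levels in CPM were low in all libraries, from 1.78 to 7.26 CPM for Car9 and from 4.39 to 19.2 CPM for Car12.

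Bnip3, which marks mitochondria for removal, had the largest difference of the 37 genes. It stood at 12.5 and 86.8 CPM in letters B and C of control, at 8.16 and 81.9 CPM in IWP2 and at 6.41 and 120 CPM in IWP2_removed. That is 6.93-fold, 10-fold and 18.7-fold within the 3 lines, with a log2 difference of 3.43 ± 0.27 (adjusted p = 0.0025). Ankrd37, a small ankyrin repeat protein and HIF target, followed at 3.29 ± 0.39, although its letter B libraries held only 0.533, 0.389 and 0.423 CPM.

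Vegfa, the angiogenic growth factor, had 43.9 and 138 CPM in letters B and C of control, 35 and 141 CPM in IWP2 and 40.7 and 134 CPM in IWP2_removed. The 3 letter C libraries were close to each other, and the log2 difference was 1.79 ± 0.13 (adjusted p = 0.0025). Ddit4, a stress-induced inhibitor of mTORC1 signalling, had 52.7 and 248 CPM in control, 54.8 and 194 CPM in IWP2 and 81.4 and 326 CPM in IWP2_removed. It had the smallest p of the 37 genes, with a difference of 2.02 ± 0.14. The prolyl hydroxylases of collagen P4ha1 and P4ha2, the thiol oxidase Ero1l and the mitochondrial protein Higd1a were also called, between 0.85 (Higd1a) and 1.33 (P4ha2). Ndrg1 (1.04 ± 0.31, adjusted p = 0.0835) and the histone demethylase Kdm3a (0.42 ± 0.14, adjusted p = 0.107) were not.

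**Figure D3:**
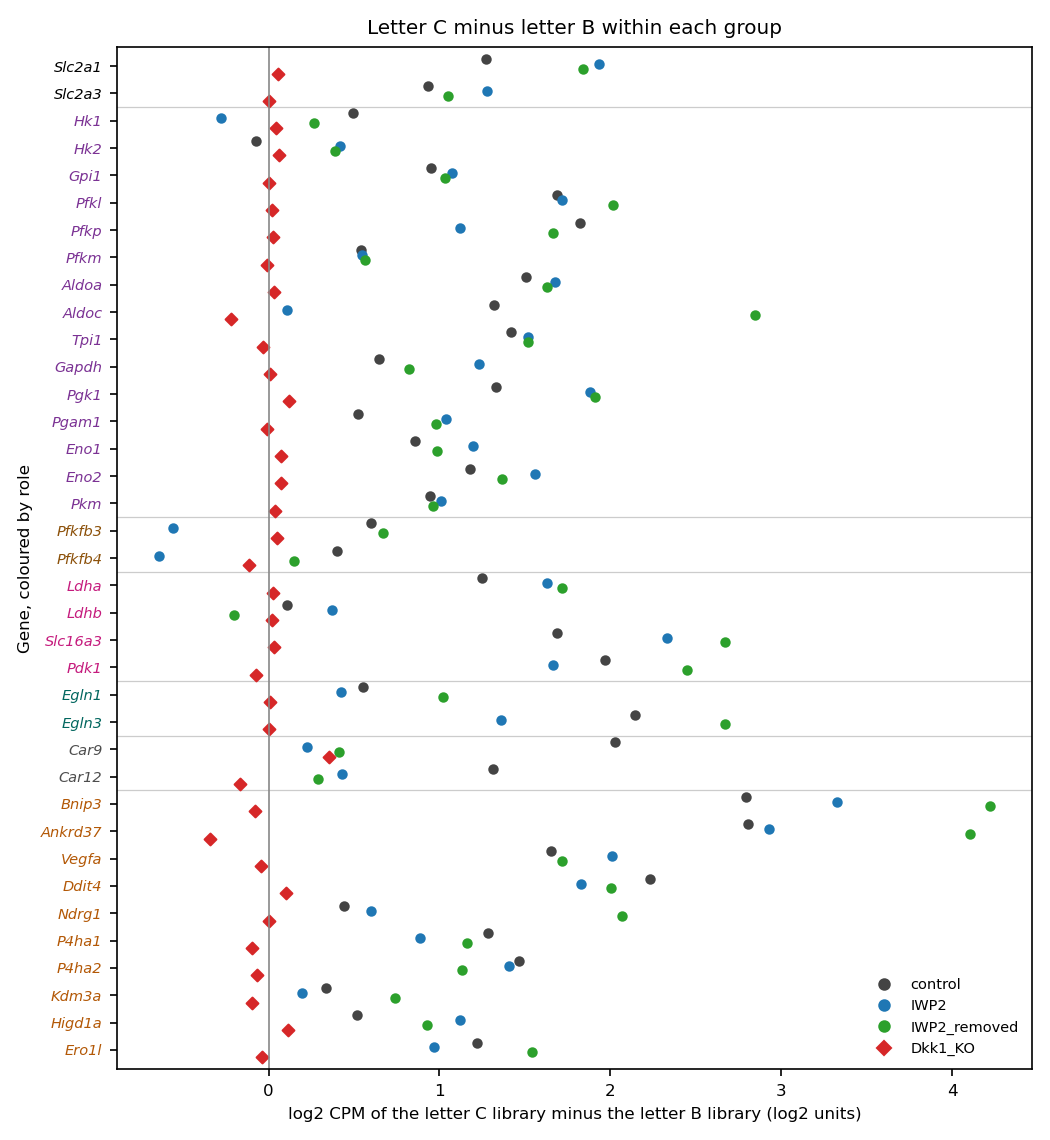
Difference in log2 CPM between the letter C and the letter B library of each group, for the 37 genes. Circles are the 3 lines of the letter comparison and diamonds Dkk1_KO. Circles lie right of 0 for most genes, up to 4.22 for Bnip3 in IWP2_removed, and the Dkk1_KO diamonds lie between -0.34 (Ankrd37) and 0.35 (Car9).

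Within single lines, where the letters are 1 library each and no test is possible, the median log2 difference of the 37 genes was 1.25 in control, 1.12 in IWP2 and 1.16 in IWP2_removed. More than 2-fold higher levels in letter C were found for 21, 23 and 23 genes, against 5.38%, 5.68% and 3.35% of all genes tested. In Dkk1_KO the median was 0.01 and 0 genes were more than 2-fold higher in letter C, against 2.1% of all genes. A test of the letter difference of the 3 lines against that of Dkk1_KO was added after these values were seen. In edgeR it called 0 of the 37 genes and 0% of all genes. The median on the log2 scale was 1.21 over the 37 genes and 0.003 over all genes. At an unadjusted p under 0.05, 26 of the 37 were higher. The share of all genes at that threshold is not given, so this count shows no difference from all genes. When all 9 libraries were fitted with the letters A, B and C as terms common to the 4 groups, 0 of the 37 genes were called and 0% of all genes. That fit takes the letter to mean the same in Dkk1_KO as elsewhere, which the labels do not state.

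The letter difference depended on the scale. In TPM, 24 genes rather than 32 were higher in letter C in 3 of 3 lines. The 8 genes that lost this were Pfkm, Aldoc, Pdk1, Car9, Car12, Ndrg1, Kdm3a and Ero1l. With limma on log2(TPM + 1), 13 of the 27 calls remained. The 14 that did not were Egln1, Egln3, Eno1, Eno2, Ero1l, Gapdh, Higd1a, P4ha1, P4ha2, Pdk1, Pfkm, Pgam1, Pkm and Slc2a3. That scale also moved the median of all genes to -0.14 in log2 units. Without the IWP2_removed libraries 18 genes were called, and Egln1, Eno1, Gapdh, Gpi1, Higd1a, Pfkm, Pgam1, Pkm and Slc2a3 were not among them. Without the control letter C library Egln1 and Pfkm were not called, and without the control letter B library Pfkm was not.

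Some measures of the libraries moved with the letter too. Mitochondrial transcripts took 3.8%, 3.12% and 3.64% of the reads in the letter B libraries of control, IWP2 and IWP2_removed and 2.31%, 2.44% and 2.72% in those of letter C. The mean length of the transcripts that received the reads was 3266, 3348 and 3202 bases in letter B and 3104, 2761 and 2982 bases in letter C. Feeder fibroblast markers summed to between 4714 and 5685 CPM in letter B and between 3975 and 5796 CPM in letter C, with 0 of 16 higher, 5 lower and none at 0. Epiblast markers summed to between 1865 and 2777 CPM in letter B and between 1907 and 3958 CPM in letter C, with 2 of 12 higher and 1 lower. Both sums overlapped between the letters and did not move in the same direction in all lines. From letter B to letter C the feeder sum rose in control and fell in IWP2 and IWP2_removed. The epiblast sum fell in control and rose in IWP2 and IWP2_removed. The part of these measures in the letter difference was not tested.

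Fewer of the other genes of these pathways were called between the letters. Of 32 further HIF target genes, 10 were higher and 3 lower in letter C, led by Pgm1 (1.72 ± 0.14), Vldlr (1.35 ± 0.13), Fam162a (1.21 ± 0.13) and Ak4 (1.22 ± 0.14) on the log2 scale. Of 12 HIF factors and their regulators 0 were higher and 1 lower: Hif1a, the oxygen-regulated subunit of HIF1, fell from a mean of 254 to 176 CPM (log2 difference -0.52 ± 0.12, adjusted p = 0.0455). Among 16 genes of the tricarboxylic acid cycle and 12 of pyruvate dehydrogenase and its kinases 0 were called, with differences of 0.05 for Cs, 0.33 for Pdha1 and 0.01 for Dld on the log2 scale. The pentose phosphate pathway had 1 of 8 higher (Tkt, 0.62 ± 0.13) and the MYC factors 0 of 6 higher and 1 lower (Myc, -1.42 ± 0.19). Of 14 tested isoforms of glycolysis outside the 37, Eno3 was higher (0.72 ± 0.14) and Hk3 lower (-1.54 ± 0.36), and of 4 tested gluconeogenesis genes Pck2 was higher (1.55 ± 0.22). The median log2 difference was 0.54 over the further HIF targets and 0.15 over the tricarboxylic acid cycle.

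The comparison of Dkk1_KO with control asks what the loss of a WNT antagonist does to these genes. Here 5 of the 37 genes were higher and 2 lower in edgeR, a smaller share than that of all 18095 genes tested, of which 44.3% were called, 21.3% as higher and 23% as lower. In control, 21 of the 37 genes were more than 2-fold higher in letter C than in letter B, beside 5.38% of all genes. Such gaps widen the standard errors, so few calls do not show that these genes were unchanged. The median log2 fold change of the 37 was -0.02, beside -0.03 over all genes. The genes called as higher were Hk1, Ldhb, Pfkfb3, Ndrg1 and Hk2. Kdm3a and Egln1 were the genes called as lower.

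Hk1 (chr10:62268855-62379908), the hexokinase bound to mitochondria in most tissues, stood at 420, 429 and 443 CPM in the Dkk1_KO libraries and at 52.2 and 73.4 CPM in control. The groups were far apart, and the log2 fold change was 2.78 with a standard error of 0.19 (adjusted p = 1.35e-05). In TPM the level was 80.3, 81 and 87.1 in Dkk1_KO and 12.1 and 14.1 in control. Hk2, the second hexokinase, had 153, 150 and 157 CPM in Dkk1_KO and 111 and 106 CPM in control. Its libraries did not overlap either, but the fold change was smaller, at 0.50 ± 0.16 (adjusted p = 0.0338).

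Ldhb (chr6:142490249-142507957) had 281, 274 and 279 CPM in Dkk1_KO and 120 and 129 CPM in control, a log2 fold change of 1.16 ± 0.14 (adjusted p = 0.000303). Its partner Ldha had 678, 659 and 670 CPM in Dkk1_KO and 464 and 1102 CPM in control. The control libraries of Ldha lay on either side of Dkk1_KO, and the gene was not called (-0.23 ± 0.59). In TPM, Ldhb stood at 262 to 264 beside 301 to 309 for Ldha in Dkk1_KO, and at 141 to 148 beside 270 to 549 in control.

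Pfkfb3 had 71.9, 72.3 and 74.9 CPM in Dkk1_KO and 29.3 and 44.3 CPM in control, 0.99 ± 0.26 higher on the log2 scale (adjusted p = 0.0148). Ndrg1 (chr15:66929318-66969640), a stress-responsive gene that also marks differentiation, had 95.5, 97.4 and 97.6 CPM in Dkk1_KO and 22.8 and 30.9 CPM in control. That is a log2 fold change of 1.85 ± 0.50 (adjusted p = 0.0168). In neither gene did the groups overlap.

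Kdm3a (chr6:71588972-71632990), which removes methyl groups from lysine 9 of histone H3, had 44.5, 43.8 and 40.9 CPM in Dkk1_KO and 73.4 and 92.7 CPM in control. It was lower by a log2 fold change of -0.95 ± 0.21 (adjusted p = 0.00612). Egln1 (chr8:124908587-124949324), the main oxygen-sensing prolyl hydroxylase, had 41.6, 42.4 and 42.6 CPM in Dkk1_KO and 62.4 and 91.5 CPM in control, a change of -0.87 ± 0.29 (adjusted p = 0.0371).

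For most of the 37 genes the Dkk1_KO libraries fell between the control libraries. All 3 Dkk1_KO libraries lay between letter B and letter C of control for 21 genes, above both for 9 and below both for 5. Over all 17213 genes of the letter fit the corresponding shares were 9.3% between, 33.6% above and 39.2% below. A wide gap between the control libraries, as most of the 37 genes had, leaves more room between them. Bnip3 had 56.1, 56.5 and 53.4 CPM in Dkk1_KO, between 12.5 and 86.8 CPM in control, and Vegfa had 115, 115 and 112 CPM, between 43.9 and 138 CPM. The genes that lay above both control libraries without a call were Slc2a1, Eno2, Slc16a3 and Pdk1. With the replicate number or the letter as a block, Slc2a1 and Pdk1 were called, and Slc2a1 also by DESeq2 and without any 1 of the IWP2 or IWP2_removed libraries. For Slc2a1 the Dkk1_KO libraries had 592, 597 and 621 CPM and control 107 and 258 CPM, with a log2 fold change of 1.72 ± 0.69 (adjusted p = 0.0721).

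**Figure D4:**
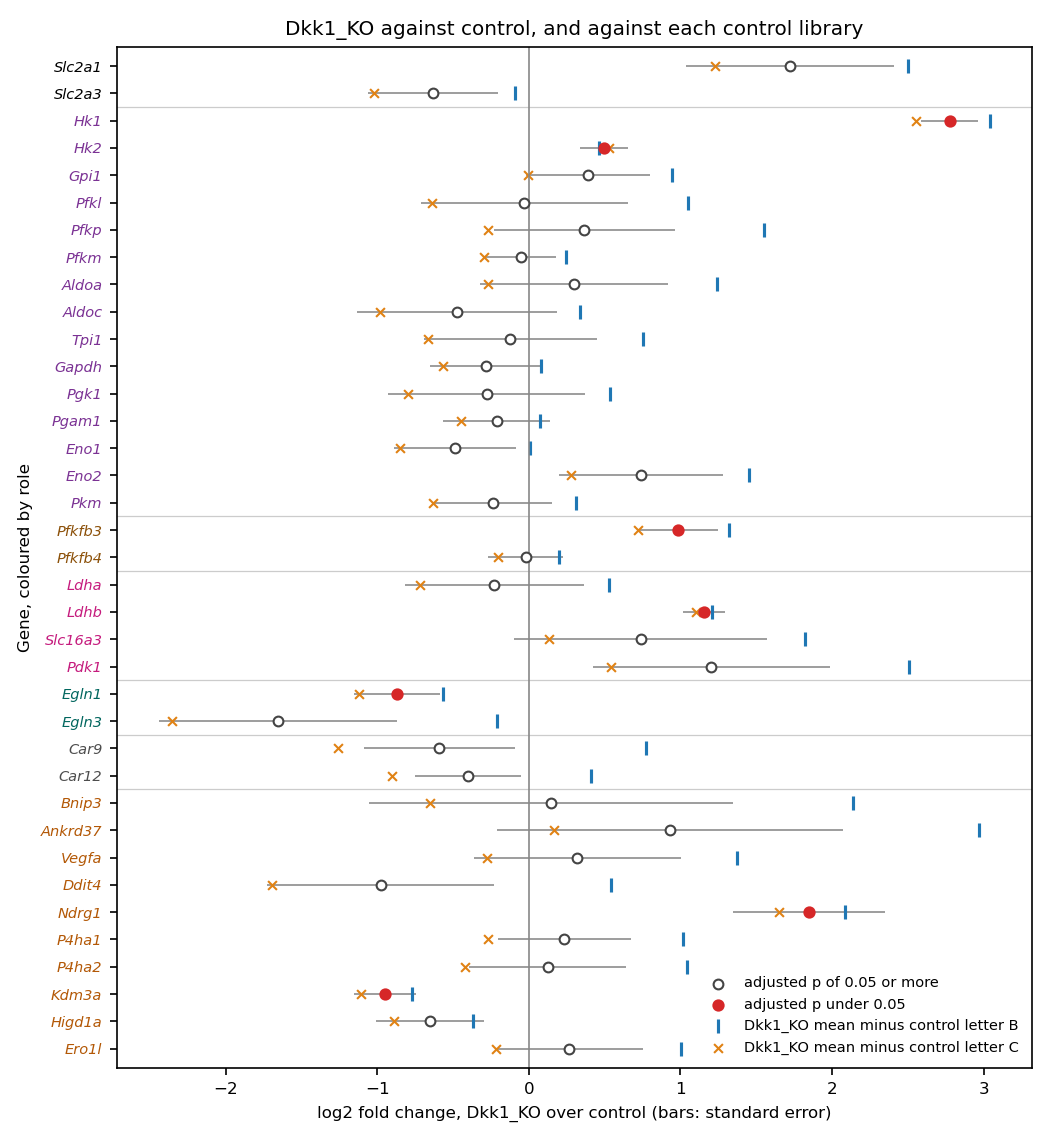
Log2 fold change of Dkk1_KO over control for the 37 genes, with standard errors from edgeR (filled symbols: adjusted p under 0.05). The blue and orange marks give the log2 of the mean CPM of Dkk1_KO minus the log2 CPM of the letter B or the letter C control library alone. They stand on opposite sides of 0 for many genes, as for Bnip3, and on the same side for Hk1 and Ldhb.

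The calls depended on the control library used and on the scale. The mean of Dkk1_KO was above control letter B for 32 genes (median log2 difference 0.77) and below control letter C for 27 (median -0.42). Without the letter B library of control, 6 genes were called and Hk2, Pfkfb3 and Ndrg1 were not among them. Without the letter C library 3 were called (Hk1, Ldhb and Pfkfb3). With the 3 Dkk1_KO libraries averaged to 1, in view of how little they differed, only Hk1 and Ldhb were called. Leaving out any 1 of the Dkk1_KO libraries ended the calls of Egln1 and Hk2. With limma on log2(TPM + 1) Hk2 and Pfkfb3 were not called, and on log2(TPM + 0.1) Hk2, Ndrg1 and Pfkfb3 were not.

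The counts of the other lists stand beside 21.3% of all genes called as higher in Dkk1_KO and 23% as lower. Of 32 further HIF targets 7 were higher and 7 lower, close to those shares. They were led by Cxcr4 (-2.74 ± 0.29), Igfbp3 (-1.80 ± 0.29), Hilpda (1.16 ± 0.20) and Rcor2 (-1.18 ± 0.21) on the log2 scale. Among 12 HIF factors 3 were higher and 2 lower: Epas1, which encodes HIF2-alpha, rose from a mean of 8.2 to 33.4 CPM, and Arnt2, a partner subunit, fell from 48.9 to 8.34 CPM while Arnt rose from 65.7 to 119 CPM. Cited2, which competes with HIF for a coactivator, was higher by 1.10 ± 0.25. The tricarboxylic acid cycle had 6 of 16 higher and 1 lower, with Idh3a at 1.09 ± 0.12, and pyruvate dehydrogenase and its kinases 1 of 12 higher (Pdk4, 1.16 ± 0.35) and 3 lower (Pdp1, Pdk3 and Pdha1, from -1.28 to -0.47). In the pentose phosphate pathway 2 of 8 were higher and 2 lower (Prps1 -1.66 ± 0.24), among 6 MYC factors 2 were higher and 3 lower (Mycn -1.81 ± 0.16), and among 4 gluconeogenesis genes 2 were higher (Fbp2 3.69 ± 0.38). Of 15 tested isoforms of glycolysis outside the 37, 7 were higher and 4 lower. Ldhc, the testis lactate dehydrogenase, averaged 11.6 CPM in Dkk1_KO and 0 CPM in control. Slc2a4, the insulin-responsive glucose transporter, was lower in Dkk1_KO by a log2 fold change of -2.28 ± 0.28. Eno3, the muscle enolase, fell from a mean of 55.9 to 8.24 CPM, and Bpgm, which diverts an intermediate of the pathway, from 60.8 to 23.8 CPM.

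Markers of other cell types moved with this comparison. Trophoblast markers were higher for 10 of 11 tested (0 lower), with Prl3d1 at 0 in every library of both groups. Epiblast markers were higher for 3 of 12 and lower for 7, neural ectoderm markers lower for 6 of 8 and feeder fibroblast markers lower for 10 of 16 and higher for 0. The feeder list summed to between 2657 and 2719 CPM in Dkk1_KO and between 5426 and 5796 CPM in control. None of the red blood cell markers passed the filter. The part of these cell types in the differences of the 37 genes was not tested.

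IWP2 against control asks what blocking WNT secretion does to these genes. None of the 37 was called in edgeR, where 2.19% of all genes were (1.27% higher and 0.917% lower), and 0 were higher and 3 lower at an unadjusted p under 0.05. DESeq2 called 2, both lower. The median log2 fold change was -0.15 over the 37 genes and 0.01 over all genes. Without the letter B library of control it was -0.63 and without the letter C library 0.45, fits in which 1 letter of control stands against both letters of IWP2. Between libraries of the same letter the median was -0.23 in letter B (27 of 37 lower) and -0.12 in letter C (24 lower). Car12 was called without the letter B library of control, and Ndrg1 without either IWP2_removed library.

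The genes with the smallest unadjusted p were Car12, Ndrg1 and Pfkfb3. Car12 had 4.39 and 5.91 CPM in IWP2 and 7.74 and 19.2 CPM in control, a log2 fold change of -1.40 ± 0.40 (adjusted p = 0.12). Ndrg1 had 5.94 and 8.99 CPM in IWP2 and 22.8 and 30.9 CPM in control, a change of -1.85 ± 0.55 (adjusted p = 0.136). Pfkfb3 had 27.5 and 18.7 CPM in IWP2 and 29.3 and 44.3 CPM in control, a change of -0.68 ± 0.28 (adjusted p = 0.279). For none of the 3 did the groups overlap, which adds no evidence, since the genes were picked by their p. None passed the adjusted threshold.

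Between libraries of the same letter, which holds the letter apart, 17 of the 37 genes were lower in IWP2 in both letters and 3 higher in both (Pfkm, Eno2 and Pkm). Of all 17213 genes of the letter fit 29.6% were lower in both and 28.5% higher in both. The 17 included the hypoxia response genes Bnip3, Ankrd37, P4ha1, P4ha2, Ero1l and Ndrg1. The most pronounced was Slc16a3, at -2.22 in letter B and -1.57 in letter C on the log2 scale. P4ha2 followed the same direction with -0.85 and -0.91. These are differences of single libraries and carry no test. In the 6 libraries without Dkk1_KO, fitted with the letter as a block and added after the values were seen, Slc16a3 was called as lower in IWP2 and in IWP2_removed, each time as the only one of the 37.

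**Figure D5:**
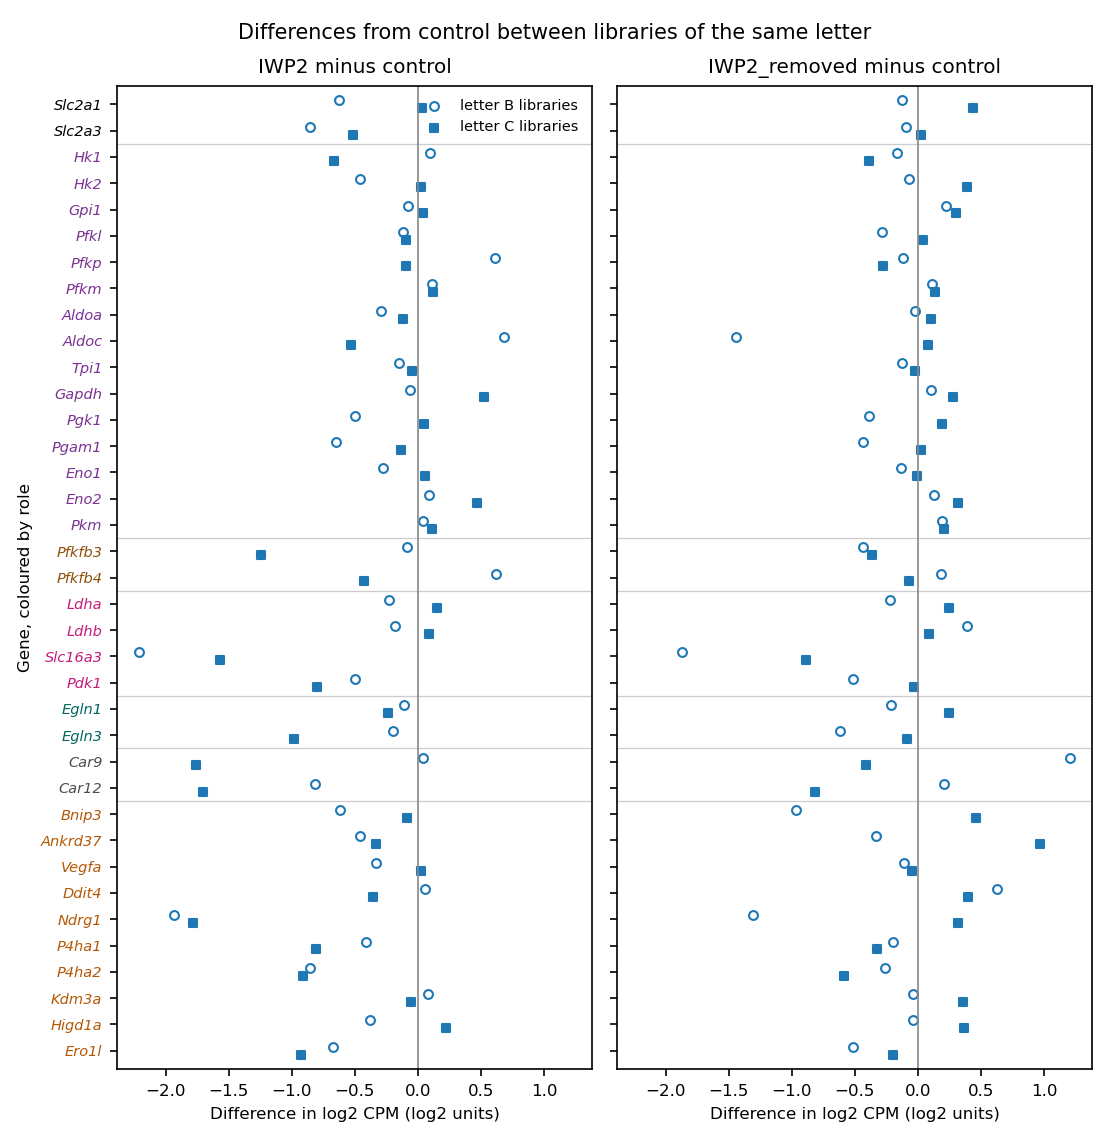
Difference in log2 CPM from the control library of the same letter, for IWP2 (left) and IWP2_removed (right), with letter B as open circles and letter C as squares. Slc16a3 lies left of 0 in all 4 comparisons, and Ndrg1 lies at -1.94 and -1.78 for IWP2.

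IWP2_removed against control called 0 of the 37 genes, 0 at an unadjusted p under 0.05 and 0 by DESeq2, where 1.25% of all genes were called in edgeR (0.669% higher and 0.586% lower). The median log2 fold change was 0.04. Ldhb had the smallest p, at 157 and 137 CPM in IWP2_removed and 120 and 129 CPM in control (0.24 ± 0.15, adjusted p = 0.627). Hk1 had 46.5 and 55.9 CPM against 52.2 and 73.4 CPM (-0.30 ± 0.19), and Pfkfb3 21.6 and 34.4 CPM against 29.3 and 44.3 CPM (-0.40 ± 0.28). Their libraries overlapped except for Ldhb, and these genes too were picked by their p. Within the same letter 7 genes were higher in both letters and 12 lower in both, beside 33.8% and 32.4% of all genes.

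IWP2_removed against IWP2 asks what followed withdrawal of the inhibitor. In edgeR 0 of the 37 genes were called, where 0.0608% of all genes were (0.0387% higher and 0.0221% lower), with 2 higher and 0 lower at an unadjusted p under 0.05 and 1 call (Ndrg1) by DESeq2. The median log2 fold change was 0.26 over the 37 genes and -0.01 over all genes, and 31 of the 37 were positive. Ndrg1 had 9.19 and 38.6 CPM in IWP2_removed and 5.94 and 8.99 CPM in IWP2 (1.68 ± 0.55, adjusted p = 0.334). Car12 had 8.94 and 10.9 CPM against 4.39 and 5.91 CPM (0.95 ± 0.39), and Car9 4.11 and 5.46 CPM against 1.83 and 2.14 CPM (1.26 ± 0.56). None of these 3 overlapped between the groups, which adds no evidence, since they were picked by their p. Within the same letter 20 genes were higher in IWP2_removed in both letters and 1, Pfkp, lower in both, beside 27.5% and 25.9% of all genes.

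The other lists held few calls in the 3 comparisons among control, IWP2 and IWP2_removed. In IWP2 against control 1 of 32 further HIF targets was higher (Nrn1, 1.99 ± 0.41) and 1 lower (Lox, -0.92 ± 0.11, which is also the 1 of 16 feeder markers called). The lactate transporter Slc16a1 was lower (-0.73 ± 0.13), as 1 of 15 isoforms of glycolysis outside the 37. The feeder markers moved in the same direction as most of the 37 genes in 2 comparisons: 14 of 16 were negative in IWP2 against control (median log2 fold change -0.33) and 15 of 16 positive in IWP2_removed against IWP2 (median 0.35). Their sums were 3975 to 4714 CPM in IWP2, 5426 to 5796 CPM in control and 4665 to 5685 CPM in IWP2_removed, without overlap between IWP2 and control. The part of the feeder cells in the differences of the 37 genes was not tested. Of the other markers, 1 of 11 for trophoblast was lower (Krt7) and 1 of 8 for neural ectoderm higher (Dcx). In IWP2_removed against control 1 of 12 HIF factors was higher (Arnt, 0.71 ± 0.12), and against IWP2 0 genes of any list were called.

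The Dkk1_KO libraries were also set against IWP2 and IWP2_removed, and since the same Dkk1_KO libraries enter each time, these comparisons are not independent of the one with control. Where a library is left out, counts of calls stand without the share of all genes. Such counts show no difference from all genes. Against IWP2, 7 of the 37 genes were higher and 1 lower, beside 51.5% of all genes called (24.2% higher and 27.2% lower). Against IWP2_removed 4 were higher and 2 lower, beside 47.2% of all genes (22.5% higher and 24.7% lower). Hk1, Ldhb, Pfkfb3 and Ndrg1 were higher and Kdm3a lower in both. Hk1 had 55.9 and 46.1 CPM in IWP2 and 46.5 and 55.9 CPM in IWP2_removed, so the 420 to 443 CPM of Dkk1_KO stood apart from all 6 other libraries, with log2 fold changes of 3.08 ± 0.19 and 3.07 ± 0.19. Ndrg1 was 3.70 ± 0.56 higher than in IWP2 and 2.02 ± 0.51 higher than in IWP2_removed. Slc16a3, at 154, 150 and 154 CPM in Dkk1_KO and 9.33 and 47 CPM in IWP2, was called against IWP2 (2.44 ± 0.90, adjusted p = 0.0499), as were Hk2 and Car12 (adjusted p = 0.0494). Slc16a3 was not called without either control library, any 1 Dkk1_KO library or the letter B library of IWP2, and Car12 not without any 1 of the Dkk1_KO, IWP2 or IWP2_removed libraries. Egln1 was lower than in IWP2_removed (-0.94 ± 0.29, adjusted p = 0.0249), a call that was lost without any 1 Dkk1_KO library or the letter C library of IWP2_removed. Without that letter C library 9 genes were called, and without the letter B library 8.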

How the data were processed

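Per the submitters' processing notes, Salmon, DESeq2 and edgeR were used, without versions. The libraries were stranded mRNA libraries, per the labels' protocols. The tables deposited by the authors give, for each of 133618 transcripts, an estimated count, which need not be whole where reads are shared between transcripts. They also hold TPM per transcript, computed by the authors' Salmon run from effective lengths, which for nearly all transcripts of 1000 bases or more were the length minus 249. The transcriptome build and the aligner settings are not given in the sources used here.

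Transcripts were matched to genes with GENCODE vM21 on GRCm38 (133399 of 133618; the 219 others held 0.117% to 0.161% of the reads). Estimated counts were summed per gene and rounded. Both gene identifiers named Aldoa were summed. Groups were compared in R 4.3.3 with edgeR 4.0.16: filterByExpr, TMM and the quasi-likelihood test, with a mean per group over 9 libraries and no block (18095 genes). The letters were compared over 6 libraries with a group term (17213 genes). Genes were called at a Benjamini-Hochberg adjusted p under 0.05 over all genes tested, and errors are standard errors. Common dispersions were 0.0524 and 0.0337. The fits were tested on simulated counts. Alternatives used DESeq2 1.42.0, limma 3.58.1 on log2(TPM + 1) and log2(TPM + 0.1), other scaling, no filter, blocks, fewer libraries and copies of genes summed in.

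Full values are given for called genes, up to 12 per comparison by adjusted p, or for the 3 with the smallest p where fewer than 3 were called. Of other lists up to 4 called genes are named, or the 2 most abundant. The result of 1 gene under this rule is not reported here. Gapdh, Bnip3, Vegfa, Slc2a1 and Ldha, where given outside this rule, were chosen after their values were seen. Members, lists and tests were chosen with earlier results of these data known. Depth limits low genes such as Ankrd37, and counts carry no correction for PCR copies.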

Additional observations from a re-analysis of the deposited data

Results flagged for a closer look

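Pfkfb3, which encodes an enzyme that makes an activator of phosphofructokinase, moved in opposite directions between the letters in different lines, by over 0.5 on the log2 scale each way. On the log2 CPM scale, letter C minus letter B was 0.599319 in control, -0.557797 in IWP2 and 0.668248 in IWP2_removed. Each value is the difference of 2 single libraries, and the difference between the lines was not tested.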

How the results depend on the processing

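The counts of called genes in this section are of the 37. The share of all genes called under each alternative is not given beside them, so they show no difference from all genes. Without the filter on low counts 14 were called in Dkk1_KO against control (7 with it), 4 in IWP2 against control (0 with it), 1 in IWP2_removed against IWP2 (0 with it), 16 in Dkk1_KO against IWP2 (8 with it) and 13 in Dkk1_KO against IWP2_removed (6 with it). DESeq2 called 2 in IWP2 against control and 1 in IWP2_removed against IWP2. With the Dkk1_KO libraries averaged to 1, the comparisons with control, IWP2 and IWP2_removed called 2, 4 and 2. Same-numbered libraries deviated together among control, IWP2 and IWP2_removed (correlations over genes of 0.301, 0.407 and 0.461) but not with Dkk1_KO (-0.0508 to 0.031), and the labels give no shared origin. With the replicate block, 14 genes were called in Dkk1_KO against IWP2 and 10 against IWP2_removed, and the letter as a block gave the same counts of 14 and 10. In Dkk1_KO against control the replicate block called 8, where Hk2 was lost and Slc2a1 and Pdk1 gained, and the letter as a block 9, with the same gains. The replicate block called 0 among control, IWP2 and IWP2_removed. A fit of Dkk1_KO and IWP2 alone called 14. In the 6 libraries without Dkk1_KO, with the letter as a block (added after the values were seen), 1 gene was called as lower in IWP2 and 1 in IWP2_removed against control. For the letter, limma called 13 on log2(TPM + 1) and 14 on log2(TPM + 0.1), and 9 libraries with letters A, B and C called 0. On those TPM scales the median of all genes moved to -0.14 and -0.22 and the share of calls that were higher from 40.4% to 16.6% and 17.3%. For Dkk1_KO against control the medians were -0.13 and -0.21 and the shares 39.3% and 36.8%, from 48.1%. Leaving out 1 library at a time gave 3 to 8 calls in Dkk1_KO against control, 0 to 1 in IWP2 against control, 6 to 11 in Dkk1_KO against IWP2, 5 to 9 against IWP2_removed and 18 to 31 for the letter. A lone library left in a group was taken to vary like the others. Summing the named copies into their genes changed no count of calls. No gene given in full by the naming rule changed direction under the alternatives run. Bnip3, Vegfa and Ldha, not called in Dkk1_KO against control, lay above the letter B and below the letter C library of control (2.14 and -0.65, 1.37 and -0.28, 0.53 and -0.72 on the log2 scale). The median log2 fold change of the 37 genes changed sign in all 6 group comparisons when single libraries were left out, and in Dkk1_KO against control it went from -0.02 to 0.35 with the replicate block.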
